A study of Mus musculus with 2 samples.

Results

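The core spliceosome genes of C2C12 cells are described here by their levels and their isoforms, from long reads that each stand for 1 cDNA molecule. Members were all annotated genes with reads whose symbol starts with Snrp, Snrnp, Sf3a, Sf3b, Prpf or Lsm followed by a digit, apart from symbols that hold -ps. The rule found 55 genes among 14198 annotated genes with reads, and all but Lsm11 were read in both libraries. They comprise 54 protein-coding genes, and the other, Snrpert, is a processed pseudogene that the rule took in by its symbol.

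C2C12 is an immortal mouse myoblast line, which the labels trace to injured thigh muscle of the C3H strain and to a commercial source. The labels name no treatment. Total RNA was sequenced as 2 libraries, given as biological replicates 1 and 2 of 1 group, so no condition could be compared. The labels do not give the stage of differentiation, the age of the culture or whether the replicates were grown apart. The libraries held 791850 and 735077 reads, and 773408 and 722647 of them fell on annotated genes. All 5 muscle line markers (Des, Cdh15, Mymk, Myog, Myod1) had reads in both libraries, summing to 2203 and 2831 CPM, the reads of a gene scaled to 1000000 annotated-gene reads. Of the markers of other cell types, neuronal Tubb3 had 48 and 46 reads, while no other neuron, blood, endothelial, epithelial or adipocyte marker had more than 3 reads in a library.

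The spliceosome removes introns from pre-mRNA. Its building blocks are small nuclear ribonucleoproteins (snRNPs), each an snRNA with a ring of 7 Sm or LSm proteins and a set of particle-specific proteins. The U1 particle recognises the 5′ splice site, the U2 particle with its SF3a and SF3b complexes binds the branch site, and the U4/U6.U5 tri-snRNP then joins before the catalytic steps. A minor spliceosome with U11 and U12 particles removes a small class of introns. These proteins serve nearly every cell, and several of the genes are known to adjust their own output through alternative exons.

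A few sequences carry the isoform results below. All are on mm10, 5′ to 3′ on the strand of the gene, and those that cross a splice junction are joined as in the mature transcript. The first pair shows where deposited models of incomplete reads end inside the coding sequence. They are of Sf3b1 (chr1:55003131-55003200, minus strand) and Sf3b2 (chr19:5287253-5287572, minus strand, across 1 intron). Capitals mark the last 30 bases of the spliced coding sequence up to the end position. For Sf3b2 they are joined across an intron that the model ending at that base keeps, so they are not the last 30 bases of that model.
Sf3b1: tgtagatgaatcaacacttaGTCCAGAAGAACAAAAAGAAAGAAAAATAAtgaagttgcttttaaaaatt
Sf3b2: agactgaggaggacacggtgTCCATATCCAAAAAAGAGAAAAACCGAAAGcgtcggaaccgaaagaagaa

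The second pair shows the start of the coding sequence of 2 Lsm2 isoforms, with the beginning of the exon they share in capitals. Lsm2-202 spans chr17:34982083-34982649 and Lsm2-201 chr17:34982257-34982649, both on the plus strand.
Lsm2-202: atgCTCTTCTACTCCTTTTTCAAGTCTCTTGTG
Lsm2-201: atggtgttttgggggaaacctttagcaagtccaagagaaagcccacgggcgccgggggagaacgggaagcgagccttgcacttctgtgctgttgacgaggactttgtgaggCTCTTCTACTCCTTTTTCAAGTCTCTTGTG

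Snrpe and Snrpb, of the Sm group, had reads that skip or include a coding exon, shown in capitals between the neighbouring coding bases: the second exon of Snrpe-204 (chr1:133608940-133610183, minus strand), skipped by an unannotated structure, and the extra exon of Snrpb-203 (chr2:130176695-130177034, minus strand), which runs into a stop codon, the last 3 bases.
Snrpe-204: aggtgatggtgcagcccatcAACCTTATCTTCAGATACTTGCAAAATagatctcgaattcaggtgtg
Snrpb-203: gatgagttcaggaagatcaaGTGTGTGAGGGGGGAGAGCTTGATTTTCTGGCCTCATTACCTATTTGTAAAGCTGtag

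Snrpa had reads assigned to annotated transcripts whose starts lie 511 bases apart, each start a separate promoter in RefSeq (build GRCm38.p6). The 5′ ends of single reads were not examined. The 100 bases before each start are shown, chr7:27196272-27196371 and chr7:27195761-27195860 on the minus strand, with each CACGTG in capitals.
Snrpa-201: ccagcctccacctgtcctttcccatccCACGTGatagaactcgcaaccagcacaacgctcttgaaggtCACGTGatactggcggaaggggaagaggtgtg
Snrpa-206: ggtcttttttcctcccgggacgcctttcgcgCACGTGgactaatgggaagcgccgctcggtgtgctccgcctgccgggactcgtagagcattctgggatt

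The members together took 4264 reads in replicate 1 and 3724 in replicate 2, or 5513 and 5153 CPM (mean 5333 ± 254.5, SD, n = 2). The median member stood at 68.4 CPM, and the median of all annotated genes with reads was 13.5 CPM. Counts were not divided by transcript length, since a long read counts a molecule once. Transcripts differ in how often they were read to their end, however, and the values for long genes below should be read beside their length.

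**Figure D1:**
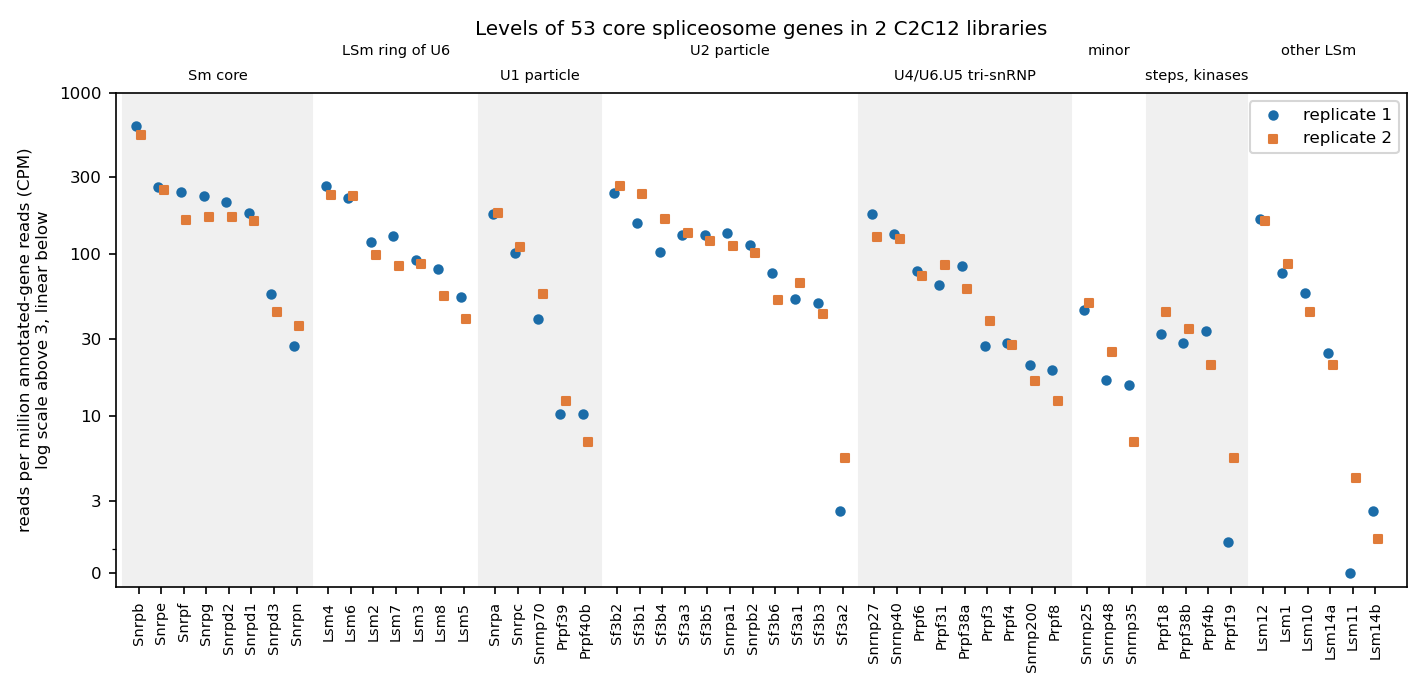
Level of 53 members with a role (x axis, grouped by particle and ordered by mean level) in CPM of annotated-gene reads (y axis, log scale above 3 and linear below), with replicate 1 as blue circles and replicate 2 as orange squares. Snrpb stands highest at 625 and 549 CPM, and within the LSm ring of U6 the levels run from Lsm4 at 265 and 234 CPM down to Lsm5 at 54.3 and 40.1 CPM.

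The Sm core genes, whose proteins form the ring on the U1, U2, U4 and U5 snRNAs, were the most abundant group at 1691 ± 205.3 CPM (SD, n = 2) over 8 genes. Snrpb (ENSMUSG00000027404.15; chromosome 2, 130171414 to 130179403), which encodes the SmB protein, led all members with 483 reads in replicate 1 and 397 in replicate 2, or 587 ± 53.1 CPM. Snrpe (SmE) had 202 and 180 reads and Snrpf (SmF) 188 and 118. Snrpg, Snrpd2 and Snrpd1 (SmG, SmD2 and SmD1) lay close below, at 201, 192 and 171 CPM on average. Snrpd3 (SmD3), whose protein takes a single place in the same ring as the others do, stood lower at 50.6 ± 8.92 CPM, with 44 and 32 reads. Its main transcript is also longer, at 3036 bases. Those of the Sm genes named before it run from 503 (Snrpe) to 1420 bases (Snrpd2), and the part of length was not tested. Snrpn, an imprinted gene for a variant of SmB best known from neurons, was the lowest Sm gene with 21 and 26 reads, or 31.6 ± 6.24 CPM. Snrpb and then Snrpe stood above the other Sm genes, and Snrpd3 and then Snrpn below them, in both libraries without overlap, whereas Snrpf, Snrpg, Snrpd2 and Snrpd1 overlapped. With the reads of pseudogene copies added (described below), Snrpg stood at 299 and 220.0 CPM and Snrpe at 266 and 253 CPM, so the order of Snrpe and Snrpg is not settled.

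The LSm proteins 2 to 8 form the related ring on U6 snRNA. All 7 genes were read in both libraries, and together they reached 899 ± 96.8 CPM (SD, n = 2). Lsm4 had 205 and 169 reads and Lsm6 174 and 166. Lsm2 followed with 92 and 72 reads. Lsm7, Lsm3 and Lsm8 ranged from 68.4 to 107 CPM on average, and Lsm5 was lowest with 42 and 29 reads (47.2 ± 10.02 CPM). Lsm4 and Lsm6 stood above the other ring members in each library, and the values of the middle genes overlapped. With the reads of an identical pseudogene copy added (described below), Lsm7 stood at 228 CPM in replicate 1, level with Lsm6, and at 149.5 CPM in replicate 2, below it, so the place of Lsm7 under Lsm6 is uncertain.

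Among the U1 genes, which summed to 382 ± 15.5 CPM, Snrpa, which binds a loop of U1 snRNA, had 138 and 131 reads and Snrpc, a zinc finger protein near the 5′ splice site, 79 and 80. Snrnp70 (U1-70K) had 31 and 41 reads, so the RNA levels of these 3 genes of U1-specific proteins stood apart in this order in both libraries. The U1-associated factors Prpf39 and Prpf40b were lower, with 8 and 9 reads and 8 and 5 reads (11.4 ± 1.49 and 8.63 ± 2.42 CPM).

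The U2 particle was the second group by level, at 1252 ± 75.2 CPM over 11 genes. Sf3b2 had 186 and 192 reads, Sf3b1, whose protein grips the branch site, 122 and 170, and Sf3b4 80 and 119. On complete reads alone, explained below, Sf3b1 stood at 45.8 ± 1.67 CPM, Sf3b2 at 155 ± 27.2 CPM and Sf3b4 at 147 ± 42.4 CPM (SD, n = 2), so the high place of Sf3b1 rests on incomplete reads. Snrpa1 and Snrpb2, whose proteins bind U2 snRNA together, stood with Sf3a3 and Sf3b5 between 109 and 134 CPM. Sf3b6, Sf3a1 and Sf3b3 stood between 46.7 and 64.4 CPM. The exception was Sf3a2, a subunit of the same SF3a complex as Sf3a1 and Sf3a3, with only 2 and 4 reads (4.06 ± 2.09 CPM), at or near the limit that a count of 0 would allow (3 counts, or 3.88 CPM in replicate 1 and 4.15 CPM in replicate 2). Sf3a2 overlaps Plekhj1 on the opposite strand, and whether reads of the locus went to its neighbour was not tested.

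The tri-snRNP genes summed to 602 ± 46.8 CPM. Snrnp27 had 137 and 93 reads, Snrnp40, a U5 protein, 103 and 90, and Prpf6, which bridges U5 to U4/U6, 61 and 53. Prpf31 and Prpf38a lay at 75.2 and 73.1 CPM and Prpf3 and Prpf4, both of the U4/U6 particle, at 33.0 and 28.1 CPM. The large U5 proteins at the heart of the machine were lowest: Snrnp200, the helicase that unwinds U4 from U6, had 16 and 12 reads (18.7 ± 2.89 CPM), and Prpf8, the scaffold of the catalytic centre, 15 and 9 (15.9 ± 4.91 CPM). Their main annotated transcripts are also among the longest of the members, at 6745 and 7442 bases, and members with longer transcripts stood lower in general. Over the 50 members with at least 10 reads, the level and the length of the main transcript had a Spearman's rho of -0.39, a description over genes that share the same 2 libraries. The median level was 117 CPM in members under 1500 bases, 77.4 CPM from 1500 to 3000 bases and 42.5 CPM above.

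The minor spliceosome genes of the U11/U12 particle were rare, at 79.6 ± 2.88 CPM in all. Snrnp25 had 35 and 36 reads, Snrnp48 13 and 18, and Snrnp35 12 and 5. Of the genes for later splicing steps and kinases, Prpf18, a second-step factor, had 25 and 32 reads, Prpf38b 22 and 25, and the kinase Prpf4b 26 and 15. Prpf19, a ubiquitin ligase of the activated spliceosome, had 1 and 4 reads, or 3.41 ± 3.0 CPM, again at the limit of detection.

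Members that work outside the spliceosome summed to 323 ± 5.28 CPM. Lsm12 led with 128 and 117 reads, followed by Lsm1, of the cytoplasmic LSm ring that promotes mRNA decay, with 59 and 63, and Lsm10, a subunit of the U7 particle that trims histone mRNA, with 45 and 32. Lsm14a, a P-body protein, had 19 and 15 reads and Lsm14b 2 and 1. Lsm11, the partner of Lsm10 in the U7 ring, had 0 reads in replicate 1, which allows up to 3.88 CPM, and 3 in replicate 2. Lsm10 and Lsm11 therefore differed widely in reads. The main transcript of Lsm11 is 6453 bases long and that of Lsm10 943 bases.

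Differences between the libraries were tested for each gene by an exact binomial test, two-sided and against the ratio of library totals, and p-values were adjusted by Benjamini-Hochberg over all 8940 annotated genes with at least 10 reads. These p-values cover counting error only and compare 2 libraries, not conditions. The muscle marker Des, with 881 and 1187 reads, also differed between the libraries, and its part in the differences of members was not tested. Over all genes 3.98% were called. Of the 55 members, 50 had enough reads and 3 were called, so the share among members was near that of all genes. Another 3 members, Lsm7, Snrpg and Snrnp27, had an unadjusted p under 0.05 in the same exact test and were all lower in replicate 2. Over all 8940 genes 1246 (13.9%) had an unadjusted p under 0.05, beside 6 of the 50 members. Of the 50 tested members, 32 were lower and 18 higher in replicate 2, while 45.3% of all tested genes were lower. The median log2 ratio was -0.14 in members and 0.06 in all tested genes.

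**Figure D2:**
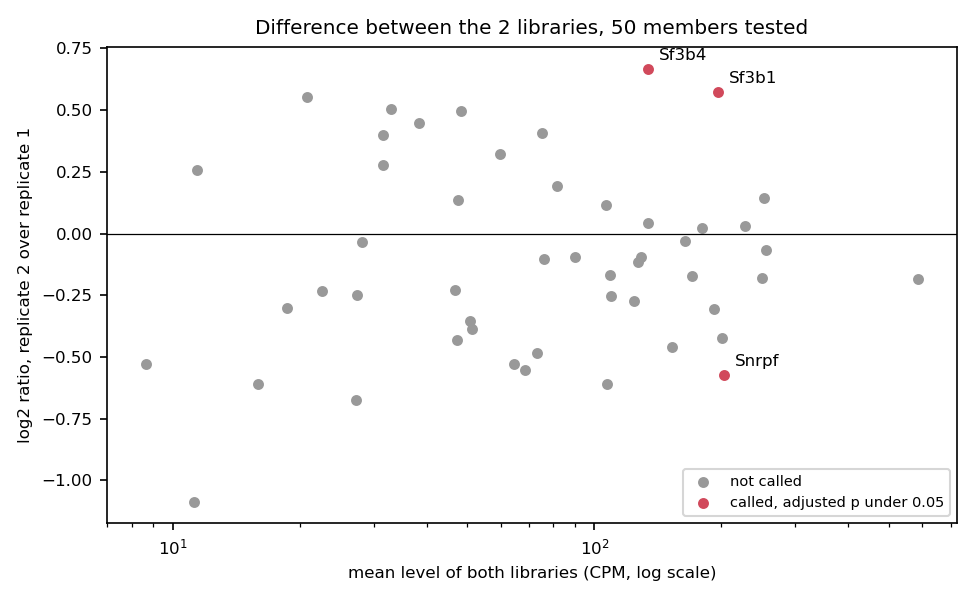
Log2 ratio of replicate 2 over replicate 1 (y axis) against mean level in CPM (x axis, log scale) for the 50 tested members, 1 point each, with called members in red. Sf3b4 and Sf3b1 lie above 0 at 0.67 and 0.57, Snrpf lies below at -0.57, and most of the uncalled members lie below 0.

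Snrpf (ENSMUSG00000020018.6; chromosome 10, 93583029 to 93589706) had 188 reads in replicate 1 and 118 in replicate 2, a log2 ratio of -0.57 (adjusted p = 0.0234, exact binomial test). Nearly all of its reads, 187 and 118, were complete, and the call held on complete models alone and under both other scalings. Of the 8 Sm genes, 7 had a ratio below 0, but the other 6 of these missed the threshold. Sf3b4 (ENSMUSG00000068856.3; chromosome 3, 96172332 to 96177564), an RNA-binding subunit of SF3b, had 80 and 119 reads, a log2 ratio of 0.67 (adjusted p = 0.038, exact binomial test). This call was lost with TMM scaling (log2 ratio 0.63, adjusted p = 0.0516), with DESeq2 size factors (0.57, 0.12), on complete models alone (0.59, 0.0967) and with no filter on low counts (0.67, 0.0603).

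Sf3b1 (ENSMUSG00000025982.13; chromosome 1, 54985169 to 55027481) had 122 reads in replicate 1 and 170 in replicate 2 (log2 ratio 0.57, adjusted p = 0.0255, exact binomial test). Its complete reads, however, numbered 29 in replicate 1 and 30 in replicate 2, and on complete models alone the log2 ratio was 0.07 (adjusted p = 1.0). With DESeq2 size factors the adjusted p was 0.106. The difference in Sf3b1 thus lay in incomplete reads, which are described next.

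Reads were sorted by the authors' pipeline into annotated transcripts, new combinations of known splice sites (NIC), structures with a new splice site (NNC) and incomplete matches of an annotated transcript, which either lack the 3′ part (prefix) or the 5′ part (suffix). Annotated, NIC and NNC models are called complete here, although their reads need not reach both ends. Of the members' reads, 86.5% and 87.2% were on complete models, beside 84.0% and 88.3% of all annotated-gene reads. Suffix models took 7.32% and 5.69% of the members' reads, and prefix models 3.89% and 5.34%, the latter beside 1.59% and 1.69% over all genes. Without Sf3b1 and Sf3b2 the members' prefix share was 1.14% and 1.37%. The excess over all genes was thus held by these 2 genes.

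**Figure D3:**
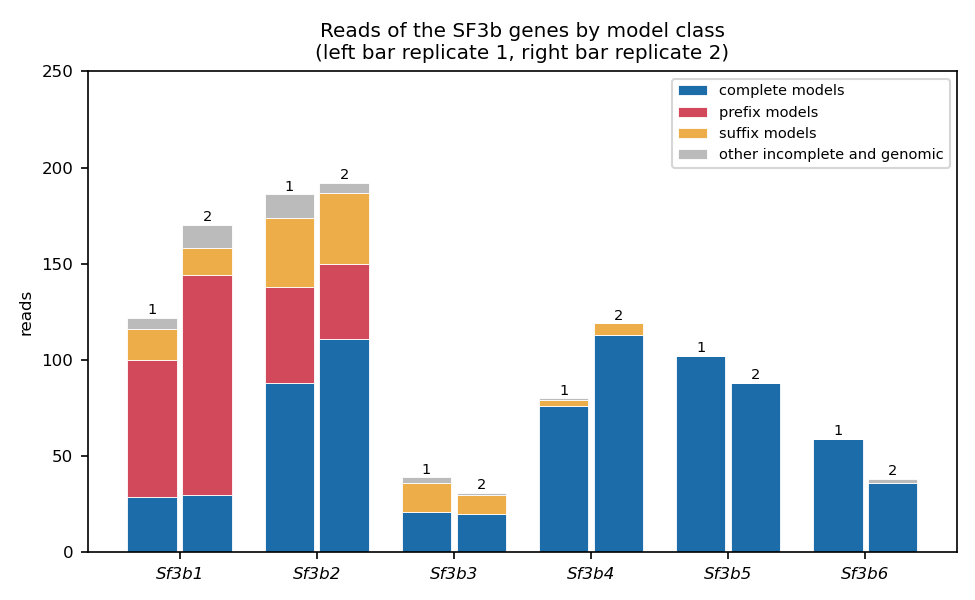
Reads of the 6 SF3b genes (y axis, stacked by model class; left bar replicate 1, right bar replicate 2). Prefix models (red) make up 71 of 122 and 114 of 170 reads of Sf3b1 and 50 of 186 and 39 of 192 of Sf3b2, while the other 4 genes have none. Sf3b5, of a single exon, has no exon that such a model could lack.

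In Sf3b1, prefix models held 71 of 122 reads in replicate 1 (58.2%, 95% Wilson interval 49.3 to 66.6%) and 114 of 170 in replicate 2 (67.1%, 59.7 to 73.7%). The main one, of 11 exons, had 64 and 93 reads, and a 10-exon form had 5 and 18. The 10-exon form runs through the intron before exon 11. Its models had 1607 and 1677 bases, beside 1499 and 1520 bases of the 11-exon form. Both forms ended in the deposited annotation at the same base in both libraries, chromosome 1 position 55003151, within exon 11 of 25 and at base 1492 of the 3912 coding bases. The annotated retained-intron transcript Sf3b1-203 ends at this same base, but its intron chain is another. As the sequence printed above shows, 20 of the 30 bases before this point are A, and only 9 of 3883 windows of that length in the coding sequence (0.232%) hold as many. A run of A in the RNA lies before the end of these models, and its part in it was not tested. The ends of single reads were not examined.

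In Sf3b2, a partner of Sf3b1 in the same complex, prefix models held 26.9% of reads in replicate 1 (95% Wilson interval 21.03 to 33.7%) and 20.3% in replicate 2 (15.2 to 26.6%). An 8-exon prefix had 15 of the 50 prefix reads in replicate 1 and 8 of the 39 in replicate 2. Its deposited model ended at chromosome 19 position 5287273 in both libraries, at coding base 927 of 2634. This base lies in exon 9, so the 8-exon model, of 1191 bases, runs through the intron before that exon. A 9-exon prefix, of 945 bases in replicate 2, ended there within 4 bases of position 5287273, with 21 reads at position 5287269. In replicate 1 it ended at the end of the exon, with 16 reads at position 5287069. In the spliced coding sequence, the 30 bases before position 5287273 hold 17 A, reached by 1.23% of windows. The 8-exon model keeps the intron among these, so its own last 30 bases were not counted. For the 9-exon prefix, the 30 bases before position 5287269 hold 16 A (2.53% of windows). Those before position 5287069 hold 7 A, close to the median of 8. Annotated transcripts end at both of the first positions, the coding Sf3b2-202 at 5287273 and the retained-intron Sf3b2-206 at 5287269.

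Prefix reads were less numerous in the remaining members. Snrnp48 had 4 of 13 and 11 of 18, mostly of an 8-exon model that ended at the last base of exon 8 of 9. No other member had more than 8 in a library. Of the 1447 annotated genes with at least 100 reads in each library, 6 had at least 50% of reads on prefix models in both libraries and 17 at least 20%, with a median of 0%. Sf3b1 is among the 6 and Sf3b2 among the 17.

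Across the 50 members tested, the share of complete reads went down with the length of the main transcript (Spearman's rho -0.64) and with its number of exons (-0.73), given as a description over genes that share the same 2 libraries. Members under 1500 bases had 95.1% complete reads (20 genes), those from 1500 to 3000 bases 89.6% (12 genes), and longer ones 66.0% (18 genes). For Prpf8, 0 of 15 and 2 of 9 reads were complete, and for Snrnp200 1 of 16 and 1 of 12. Their levels therefore rest almost wholly on partial reads and their isoforms cannot be described at this depth. Sf3b5, a gene of a single exon with a 3841-base transcript, had all 102 and 88 reads on the complete model. Prefix and suffix models hold part of an intron chain, which a single-exon gene lacks. Its share therefore does not show that the transcript was read whole.

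**Figure D4:**
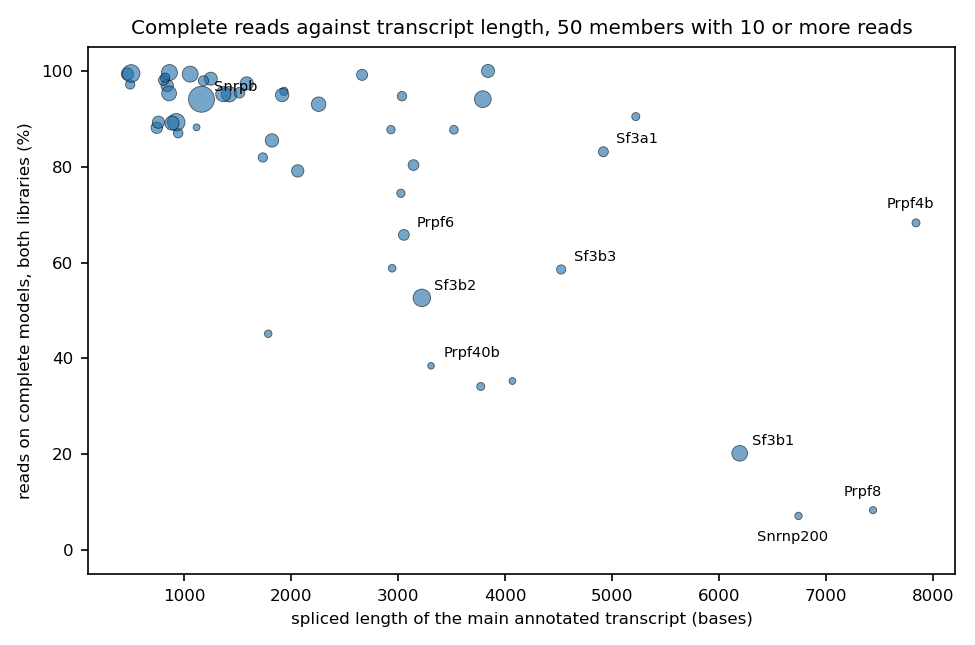
Share of reads on complete models in both libraries together (y axis, %) against the spliced length of the main annotated transcript in bases (x axis) for 50 members, 1 circle each with its area growing with the read number. Short Sm and LSm genes lie near the top left, while Sf3b1, Snrnp200 and Prpf8 lie at the lower right, and Prpf4b at 7844 bases lies apart from them.

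The complete reads of Prpf4b were mostly of a short transcript. The annotated retained-intron transcript Prpf4b-206, of 2 exons, held 9 of 17 and 9 of 11 complete reads, and the coding Prpf4b-201 only 6 and 2. The 95% Wilson intervals of Prpf4b-206 were wide, at 31.0 to 73.8% and 52.3 to 94.9%. Prpf4b-206 has 1727 bases and Prpf4b-201 7844, and the part of length was not tested. Over all members, retained-intron transcripts took 0.889% and 0.947% of annotated-transcript reads, beside 1.12% and 0.740% over all protein-coding genes. Transcripts annotated as targets of nonsense-mediated decay, the pathway that removes mRNAs with an early stop codon, took 0.430% and 0.163%, or 15 and 5 reads, beside 0.284% and 0.269%. The members' Wilson intervals, 0.627 to 1.26% and 0.661 to 1.36% for retained introns and 0.261 to 0.708% and 0.0698 to 0.382% for decay targets, held the value of all genes in each library.

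Isoform use could be described for 38 members with at least 20 complete reads in each library. In all 38 the most read isoform was the same in both libraries and was annotated as protein coding, and in 23 it took at least 90% of complete reads in both. Only Snrpa, Lsm6 and Lsm10 had a further isoform at 10% or more in both libraries. Isoform use did not differ detectably between libraries: by Fisher's exact test, two-sided, with the leading isoform set against the rest, 0 of 37 members were called after adjustment and 0 had an unadjusted p under 0.05, while over all 4011 genes tested 0.0997% were called.

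**Figure D5:**
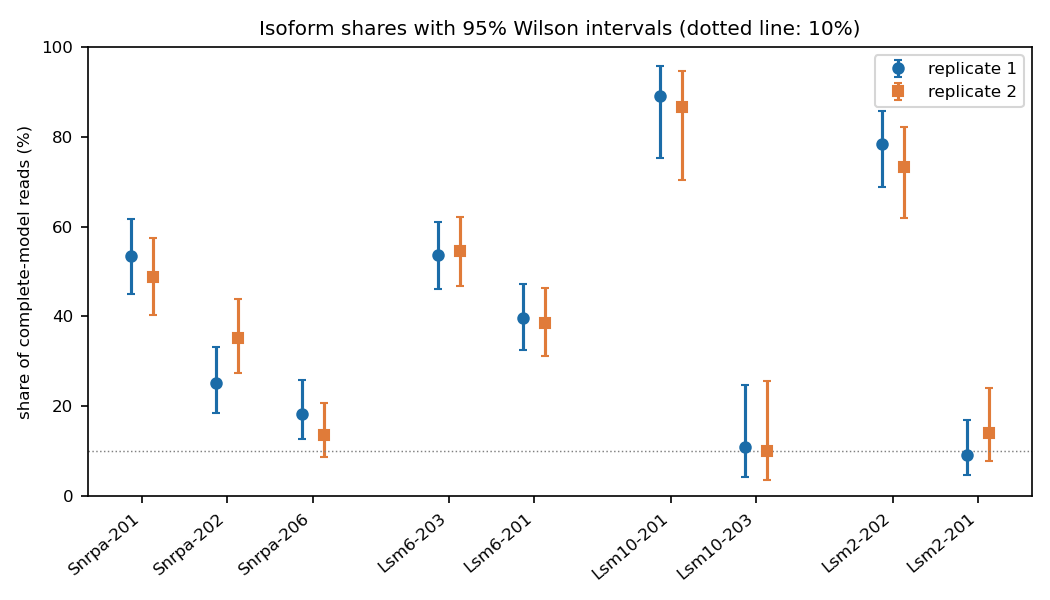
Share of complete-model reads (y axis, %) for 9 isoforms of Snrpa, Lsm6, Lsm10 and Lsm2 (x axis) in replicate 1 (blue) and replicate 2 (orange), with 95% Wilson intervals and a dotted line at 10%. The intervals of the libraries overlap for every isoform shown, and Snrpa and Lsm6 are split among isoforms while Lsm10 and Lsm2 have a clear main isoform.

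Snrpa (ENSMUSG00000061479.15; chromosome 7, 27187005 to 27196271) was split 3 ways. Snrpa-201 took 70 of 131 complete reads in replicate 1 (53.4%) and 61 of 125 in replicate 2 (48.8%), Snrpa-202 25.2% and 35.2%, and Snrpa-206 18.3% and 13.6%. The order was the same in both libraries. All 3 encode the same 861 coding bases and differ ahead of them. In the annotation, Snrpa-206 starts 511 bases downstream of Snrpa-201, at the second RefSeq promoter. Snrpa-202 differs there from Snrpa-201 by a start 26 bases away and a shift of the first-exon donor by 3 bases. Whether this small shift lies in the RNA or in the alignment of single reads was not tested. The sequence before the upstream start holds CACGTG 2 times and that before the downstream start 1 time. This 6-letter motif, its own reverse complement, was searched after the letters were seen. Of the genes with RefSeq promoters of 300 bases, 2187 of 27025 (8.09%) had it in at least 1, and of the 44 members that could be matched 4 (9.09%), a share near that of all genes. Snrpa, which prompted the search, is among the 4. A match describes the letters alone.

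Lsm6 (ENSMUSG00000031683.16; chromosome 8, 78804865 to 78821140) was split between Lsm6-203, with 88 of 164 and 85 of 156 complete reads (53.7% and 54.5%), and Lsm6-201, with 65 and 60 (39.6% and 38.5%). The isoforms share their 240 coding bases, and Lsm6-203 has a further exon of 99 bases in its 5′ untranslated region. In the annotation their 3′ ends differ too, at position 78804865 for Lsm6-203 and 78806451 for Lsm6-201. The 3′ ends of single reads were not examined. The Wilson intervals of the isoforms, 46.0 to 61.1% and 32.5 to 47.3% in replicate 1, met only narrowly. In replicate 2 those of 46.7 to 62.1% and 31.2 to 46.3% did not meet. Both shares are of the same reads, so the overlap of their intervals does not test whether they differ. Lsm10-203, with 4 of 37 and 3 of 30 reads, lay at the 10% threshold itself.

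Lsm2 (ENSMUSG00000007050.17; chromosome 17, 34981862 to 34985891) had isoforms that encode different beginnings of the protein. Lsm2-202 held 69 of 88 and 52 of 71 complete reads (78.4% and 73.2%). Its first coding exon gives only the start codon, as printed above, before the shared exon. Lsm2-201 held 8 and 10 reads (9.09% and 14.1%) and begins with 111 coding bases of its own, so its coding sequence is 108 bases, or 36 codons, longer. The noncoding Lsm2-208 held 6 and 4 reads.

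The other members with the most reads on isoforms beside the leading one are given here by those reads. Snrpe had 21 and 19 in all and Snrpb 11 and 10. Sf3b2, Sf3b1, Lsm4, Lsm7 and Prpf31 had 15 and 24, 13 and 13, 14 and 11, 13 and 12, and 8 and 8 such reads, and Snrpg, tied with Prpf31 in its sum, had 13 and 3. In Prpf31 the retained-intron Prpf31-205 held 5 of 43 and 4 of 47 complete reads. In Lsm7 the noncoding Lsm7-202 held 4 and 5.

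Snrpb and Snrpe each had transcripts with an early stop. SmB is known to limit its own mRNA through an alternative exon that brings in a stop codon. The annotated decay target Snrpb-203, with an extra exon of 124 bases of which 55 are read before the stop, had 3 of 443 complete reads in replicate 1 and 2 of 385 in replicate 2 (0.677% and 0.519%). The coding Snrpb-201 held 97.5% and 97.4%. For Snrpe, Snrpe-204 held 89.5% and 89.4%, and the decay target Snrpe-206 had 9 and 3 reads (4.50% and 1.67%). How much of such RNA was made and then degraded cannot be read from steady-state counts.

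In all, 257 unannotated structures (NIC or NNC, several exons) were found on members, of which 202 had a single read in total and 34 had a read in both libraries. Only 2 had at least 5 reads in 1 library and 1 in the other. The first was in Snrpe, with 6 and 9 reads. Its intron, chromosome 1 positions 133608978 to 133610163, skips the 27-base second exon printed above, and its acceptor lies 18 bases before the annotated acceptor of the next exon. The net loss is 9 bases, a multiple of 3 within the coding sequence. A second Snrpe structure, with 4 and 2 reads and an intron from 133608960 to 133610149, skipped the same exon and carried the first exon 14 bases further, a net loss of 13 bases. The other structure that passed was in Sf3b2, with 1 and 6 reads, and moved a splice site by 3 bases.

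The rest of the 8 best-supported structures had 2 to 4 reads in each library, in Lsm7 (3 and 3), Snrpb and Snrpg (4 and 2 each), Lsm4 (3 and 2) and Sf3b2 (2 and 3), with Lsm14a and a further Sf3b2 structure tied at 2 and 2. Of the 34 structures with reads in both libraries, 15 replaced a single intron by another that differed by at most 10 bases in length, such as the 4-base shifts in Snrpb and Sf3b2. Whether such small shifts lie in the RNA or in the alignment of single reads was not tested.

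Pseudogenes limit some of these levels. Processed pseudogenes with at least 90% identity over at least 80% of their length to a member transcript numbered 11, for 9 members, and took 164 and 117 reads. Gm10146 is identical to Lsm7 over its whole 309 bases and had 76 and 47 reads, beside 100 and 61 of Lsm7. Gm8186 is identical to Snrpg over 231 bases and had 53 and 35 reads beside 178 and 124. Gm7846 (Lsm5) had 10 and 12 reads and Gm10120 (Snrpd2) 9 and 9. Snrpert itself, 99.6% identical to Snrpe over 225 bases, had 4 and 3. With the copies' reads added, an alternative chosen after seeing the data, the mean level became 189 CPM for Lsm7 in place of 107, 259 CPM for Snrpg in place of 201 and 62.7 CPM for Lsm5 in place of 47.2, and Lsm7 was then also called lower in replicate 2. The levels of these 3 genes are thus uncertain by the reads of their copies.

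Other genes of the pathway came from a fixed list. Of 55 other spliceosome proteins, all had reads, 54 were tested and 3 were called by the exact binomial test (2 lower and 1 higher in replicate 2). Puf60, which helps U2 bind the 3′ splice site, led at 538 CPM, followed by Eif4a3, the helicase of the exon junction complex, at 451 CPM and U2af1, which binds the 3′ splice site, at 300 CPM. Rbm8a, another exon junction protein, had 175 and 103 reads (log2 ratio -0.66, adjusted p = 0.00832, exact binomial test), Zmat2 77 and 35 (-1.03, 0.0121), and Eif4a3 303 and 368 (0.38, 0.0243). Rbm8a alone kept its call under all alternatives tried. Zmat2 lost it on complete models alone, and Eif4a3 there and under both other scalings.

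All 17 genes for snRNP assembly, which load the Sm ring and carry the particles between cytoplasm and nucleus, had reads. Strap, a subunit of the SMN complex, led at 270 CPM, with Wdr77, of the methylosome, at 127 CPM and Phax, the export adaptor of snRNAs, at 117 CPM. By the exact binomial test with adjustment 0 of 17 were called, and 2 had an unadjusted p under 0.05, a share near the 13.9% of all genes tested.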

How the data were processed

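Per the file headers, the deposited tables hold the authors' raw read counts per transcript model on mm10 with GENCODE M21, and unannotated models carry TALON as source. Aligner and filters: not given in the sources used here. Gene counts were summed over all models of an annotated gene. Members and lists were chosen with earlier results of these data known. Named were the 3 highest and the lowest genes of each role group, called genes, the 10 members with most reads on secondary isoforms and the 8 unannotated structures best supported in both libraries. Genes with 10 reads over both libraries were tested by exact binomial tests and isoforms by Fisher's exact tests (SciPy 1.17.1), with Benjamini-Hochberg adjustment at 0.05. Both were tested on simulated data. The values of 1 member are not reported here. Log2 ratios used an offset of 0.5 reads. Alternative scalings came from edgeR 4.0.16 and DESeq2 1.42.0, which could not test 2 libraries of 1 group. Copies were sought with blastn 2.17.0. Gene positions and transcripts came from GENCODE M21, and promoters from RefSeq. Wilson intervals and floors (3 counts) cover counting error only.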

Additional observations from a re-analysis of the deposited data

Results flagged for a closer look

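Models antisense to members were not part of the comparisons above. Over 8 members they held 12 and 9 reads. Only Snrnp70, the gene of U1-70K, exceeded 3 reads in both libraries, with 5 reads in replicate 1 and 5 in replicate 2, beside 31 and 41 reads in the sense direction. Snrnp200 had 4 and 1. There were no control samples, and the signal was flagged because it lay above the limit that a count of 0 allows.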

How the results depend on the processing

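The summed member level moved by less than 1 SD on complete models alone and with copies' reads added. The other scalings raise 1 library and lower the other by construction. The mean of the libraries could therefore hardly move under them, for the sum or for any member, and is no check. The SD of the summed level was 254.5 CPM, and it was 354.0 CPM with TMM scaling and 510.8 CPM with DESeq2 size factors. The single replicates gave 5153 and 5513 CPM, which says nothing on the stability of the summed level. Complete models alone moved the level of 26 of 55 members by over 1 SD. The count of 3 called members fell to 1 (Snrpf) with DESeq2 size factors and to 1 on complete models alone. That of 3 called other spliceosome proteins fell to 1 (Rbm8a) on complete models alone. Members with several used isoforms numbered 5 at a threshold of 5%, with Lsm2 and Prpf31 added, and 5 to 6 when a replicate was left out. The median member had 90.2% complete reads. Unannotated structures numbered 9 with at least 2 reads in each library and 0 with at least 10 in 1 library. DESeq2 scaling shifted the median log2 ratio of all tested genes to -0.04 and that of members to -0.24. No call of isoform use or of assembly genes appeared under any alternative. No paired analysis was possible because the series has 1 group. The causes of these shifts were not tested. Counts under about 20 reads limit what can be said of Sf3a2, Prpf19, Lsm11, Lsm14a, Lsm14b, Prpf8, Snrnp200, Prpf39, Prpf40b, Snrnp35 and Snrnp48.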
